A study of Homo sapiens with 8 samples.

Results

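The genes described here encode the mitochondrial contact site and cristae organizing system (MICOS), the sorting and assembly machinery (SAM) of the outer membrane, and an intermembrane space protein grouped with them. They were chosen by name, and 10 of 10 were found among the 56638 gene symbols of each deposited count table: MTX1, MTX2, SAMM50, DNAJC11, IMMT, CHCHD3, CHCHD6, APOO, APOOL and CCDC58. The choice was made knowing that MTX2, CHCHD3 and CCDC58 fell after siRNA against ETS1, so their siRNA values and those of the other 7 genes are given as a description with no test. The shRNA libraries were not used in the choice and carry the tests.

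MICOS is a protein assembly of the inner mitochondrial membrane. It holds the necks of the cristae, the folds on which respiration takes place, and its core subunit is mitofilin, the product of IMMT. SAM inserts barrel-shaped proteins into the outer membrane, and its central channel, SAMM50, touches MICOS across the intermembrane space, so that the inner and outer membranes are bridged at the necks of the cristae. Several of the subunits are small proteins with paired cysteine motifs that are folded in the intermembrane space by the import relay of CHCHD4 (MIA40).

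RNA was sequenced from SCC25 cells, a human line from a squamous cell carcinoma of the tongue, in 8 libraries that fell into 4 groups of 2. In the transient experiment, cells were transfected with a pool of siRNAs against ETS1 (ETS1 siRNA) or with non-targeting siRNAs (siRNA control). In the stable experiment, cells were transduced with lentivirus, selected with puromycin and carried a single ETS1-targeting hairpin, the third by its label (shETS1), or a non-targeting hairpin (shCON). ETS1 is a transcription factor that binds GGAA-centred sites, and the comparisons ask what its short-term and its lasting loss did to RNA levels. All 4 groups were the same line with no other alteration named, the replicates of the stable lines were not stated to be separate cultures, and p-values therefore measure only the spread between these libraries.

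Total counts ran from 15954616 to 25953213 per library. ETS1 stood at 82.3 and 72.1 CPM, reads scaled to a common library total, in shCON and at 9.76 and 11.1 CPM in shETS1, and at 288 and 248 CPM in siRNA control and 17.4 and 13.2 in ETS1 siRNA, so the target was low in every library labelled as a knockdown. CPM were scaled within each table, and levels are compared only inside an experiment. Structural RNAs (those of the signal recognition particle, 7SK and the RNase P family) and mitochondrially encoded RNAs together took 10.5 to 13.0% of counts in shETS1, 6.57 to 7.55% in shCON and at most 0.00441% in the siRNA libraries, where the mitochondrially encoded genes were listed at 0. Squamous markers were counted in 10 of 10 cases in every group, and their summed level was 17100 to 17300 CPM in shCON, 28100 to 28300 in shETS1, 15900 to 20500 in siRNA control and 23000 to 27200 in ETS1 siRNA. The sum was mostly keratin RNA (KRT5, KRT14 and KRT6A), and after shRNA 7 of the 10 markers were called higher and 2 lower in edgeR, TP63 (log2 fold change −0.40, edgeR adjusted p = 0.0013) and EPCAM (−0.60, edgeR adjusted p = 4.5e-06), with CDH1 at 0.01. Fibroblast markers, with 6 of 6 counted, summed to 244 to 272 CPM in shCON, 2100 to 2200 in shETS1, 154 to 175 in siRNA control and 244 to 279 in ETS1 siRNA. Immune markers stayed at or under 4.10 CPM, and endothelial markers at or under 2.27 CPM except for 23.9 to 24.1 in shETS1. That level was nearly all KDR, at 24.0 and 23.8 CPM, while CLDN5 was listed at 0 in shETS1 and PECAM1 and CDH5 in all 4 shRNA libraries. The marker genes named here were singled out after their values were seen. The part of these shifts in the results was not tested, and in bulk RNA fewer cells of a kind cannot be told apart from less RNA per cell.

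Short stretches of sequence are shown for 4 of the genes because of motifs they carry. The ETS core had no part in the choice of genes. The pair of heptamers shown after it came from the same siRNA libraries whose values were known at the choice. The first motif is an ETS core, CCGGAAG, with its reverse complement CTTCCGG, searched on both strands of the RefSeq promoters (GRCh38.p14, all 10 genes matched). It was found in the promoters of MTX2, IMMT and APOO and in none of the other 7. Of all 35116 promoters, 10.3% held it. Of the 11122 genes tested after shRNA that had a promoter, 21.2% held it in any of their promoters. The first share counts promoters and the second counts genes. The stretches run from 250 bases before the transcription start to 20 bases after it, with the core in capitals.
MTX2, chr2:176269192-176269461, plus strand: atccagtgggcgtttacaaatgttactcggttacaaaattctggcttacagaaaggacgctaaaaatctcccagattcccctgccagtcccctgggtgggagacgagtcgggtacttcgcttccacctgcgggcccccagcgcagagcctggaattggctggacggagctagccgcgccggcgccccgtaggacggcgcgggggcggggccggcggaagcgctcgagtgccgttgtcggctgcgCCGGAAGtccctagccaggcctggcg
IMMT, chr2:86195443-86195712, minus strand: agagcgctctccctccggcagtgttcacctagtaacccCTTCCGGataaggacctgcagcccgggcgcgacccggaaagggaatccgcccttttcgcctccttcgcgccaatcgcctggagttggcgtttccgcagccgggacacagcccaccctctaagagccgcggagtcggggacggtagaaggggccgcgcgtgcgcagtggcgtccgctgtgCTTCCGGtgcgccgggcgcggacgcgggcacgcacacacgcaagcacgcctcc
APOO, chrX:23907919-23908188, minus strand: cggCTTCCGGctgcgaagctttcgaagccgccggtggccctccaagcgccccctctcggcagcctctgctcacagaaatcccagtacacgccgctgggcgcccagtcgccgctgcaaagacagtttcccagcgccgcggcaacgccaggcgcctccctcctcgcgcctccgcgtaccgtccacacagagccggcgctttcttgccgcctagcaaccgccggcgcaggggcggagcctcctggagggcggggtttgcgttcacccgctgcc

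The core of MTX2 began 6 bases before its start, those of IMMT 212 and 33 bases before, and that of APOO 247 bases before. These are matches of letters. The study mapped ETS1 binding in SCC25 cells by ChIP-Seq, which was not used here, so whether these matches are bound was not looked up. The other motifs are a pair of heptamers, ACCTCAA and AGCCTTA, that an earlier analysis of these same libraries had linked with genes that moved after siRNA, so that their presence here is no independent support. On the transcript strand of the canonical transcripts (GENCODE lifted to GRCh37), ACCTCAA lay in the 3′ untranslated region of MTX2 and of CCDC58 and in none of the other 8, and AGCCTTA lay in that of APOO only. The sites are shown with the heptamer in capitals.
MTX2, chr2:177202488-177202516, plus strand: tgctttttgaaACCTCAAattatataatg
CCDC58, chr3:122078540-122078568, minus strand: acttagccaagACCTCAAgtataaataat
APOO, chrX:23851521-23851549, minus strand: gataatgtacaAGCCTTAgaactcctcat

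MTX2 and CCDC58, which hold ACCTCAA in untranslated regions of 361 and 278 bases, were among the 3 genes that were lower after siRNA. CHCHD3, the remaining one, held neither heptamer anywhere in its canonical transcript. Across 18643 genes with a median untranslated region of 1092 bases, 11.1% held ACCTCAA and 9.75% held AGCCTTA. SAMM50, which did not fall after siRNA, held a copy of ACCTCAA outside its 3′ untranslated region.

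After shRNA, 7 of the 10 genes were lower in shETS1, 1 was higher and 2 did not pass the test, at an adjusted p under 0.1 in edgeR's quasi-likelihood test over all 16481 genes tested. Of all those genes, 30.9% were called lower and 29.7% higher, so a call of some kind was common in this experiment. The median log2 fold change of the 10 genes was −0.23, beside 0.00066 over all genes tested. CHCHD3 and SAMM50 fell furthest, to 65.5% and 65.0% of the shCON mean, while the remaining 5 lower genes kept between 74.0% and 86.0%. After siRNA, 3 of the 10 were called lower and 0 higher, beside 2.27% and 1.13% of 14742 genes tested, counts that the choice of genes fixed in part and from which nothing is read. The other 7 had siRNA fold changes from −0.29 to 0.36 on the log2 scale, and the median of all 10 was 0.02, beside 0.0018 over all genes tested.

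**Figure D1:**
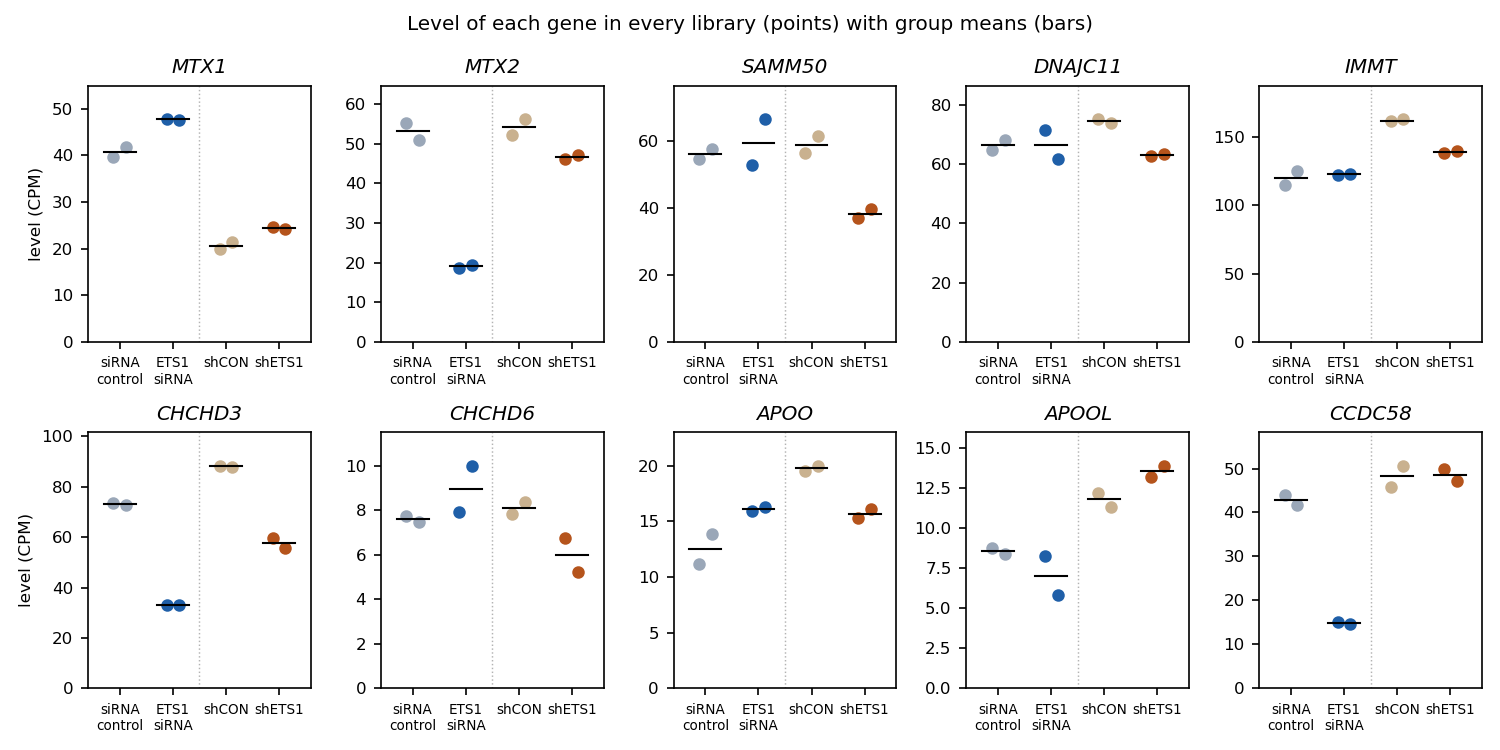
Level of each of the 10 genes in CPM (vertical axis, starting at 0) in every library, with points for libraries and bars for group means, the siRNA experiment left of the dotted line and the shRNA experiment right of it. MTX2, CHCHD3 and CCDC58 stood at 18.7 to 19.4, 33.2 and 14.7 to 15 CPM in ETS1 siRNA, and CCDC58 at 47.2 to 49.9 CPM in shETS1, inside the range of shCON.

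The SAM genes came first. SAMM50 (chr22:44351322-44406411, plus strand, GRCh37, 15 exons) encodes the channel that inserts barrel proteins into the outer membrane. In shCON it stood at 56.3 and 61.2 CPM and in shETS1 at 36.9 and 39.5 CPM. Both knockdown libraries lay below both controls, a fold change of −0.62 on the log2 scale (SE 0.08, edgeR adjusted p = 6e-06). In the siRNA experiment SAMM50 stood at 54.6 and 57.5 CPM in the control and at 52.6 and 66.3 CPM in the knockdown. The groups overlapped there, with a log2 fold change of 0.09 (SE 0.14) that became −0.09 without the second ETS1 siRNA library. SAMM50 shares 148 exon bases with PNPLA3 on the same strand, and reads from those bases cannot be assigned to either gene alone.

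MTX2 (chr2:177134123-177202753, plus strand, 10 exons) encodes metaxin 2, a SAM subunit on the cytosolic face of the outer membrane. In siRNA control it stood at 55.3 and 51.1 CPM and in ETS1 siRNA at 18.7 and 19.4 CPM, which is 35.9% of the control mean and a log2 fold change of −1.48 (SE 0.13). After shRNA the same gene stood at 52.3 and 56.2 CPM in shCON and 46.1 and 47.2 CPM in shETS1. Those groups did not overlap either, but the fold change was smaller, −0.22 on the log2 scale (SE 0.08, edgeR adjusted p = 0.028), and 86.0% of the control mean remained. The call was lost without the second shCON library (−0.16, edgeR adjusted p = 0.26). No annotated gene shares exon bases with MTX2.

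MTX1 (chr1:155178486-155183615, plus strand, 8 exons) encodes metaxin 1, the partner of metaxin 2, and it did not follow MTX2 down. It stood at 20 and 21.3 CPM in shCON and at 24.7 and 24.2 CPM in shETS1, higher by 0.25 on the log2 scale (SE 0.10, edgeR adjusted p = 0.036). The siRNA experiment gave 39.6 and 41.7 CPM in the control and 47.7 and 47.6 CPM in the knockdown, or 0.23 on the log2 scale (SE 0.12). Both knockdown libraries were thus above both controls in each experiment. The shRNA call was lost when libraries were scaled by size only (0.12, edgeR adjusted p = 0.26), with DESeq2 (0.24, DESeq2 adjusted p = 0.18) and without the first shCON library (0.20, edgeR adjusted p = 0.27). Its exons overlap THBS3 by 146 bases and a long noncoding RNA by 568 bases on the opposite strand, and no source states that reads were counted by strand. Its pseudogene MTX1P1 held 66 reads over all 8 libraries.

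DNAJC11 (chr1:6694228-6761984, minus strand, 16 exons) encodes a J-domain protein of the outer membrane that is found with MICOS and SAM. It stood at 75.2 and 74.0 CPM in shCON and at 62.8 and 63.5 CPM in shETS1, lower by a log2 fold change of −0.24 (SE 0.07, edgeR adjusted p = 0.011). In the siRNA experiment it stood at 65.0 and 68.2 CPM in the control and at 71.6 and 61.7 CPM in ETS1 siRNA. The control libraries lay between the knockdown libraries, and the log2 fold change was 0.00 (SE 0.13). DNAJC11 shares 1419 exon bases with THAP3 on the opposite strand.

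The MICOS genes followed. IMMT (chr2:86371055-86422595, minus strand, 15 exons) encodes mitofilin (MIC60), the core subunit that bends the membrane and reaches to SAMM50. With 162 and 163 CPM in shCON it had the highest counts of the 10 genes, and it stood at 138 and 140 CPM in shETS1. The fold change was −0.22 on the log2 scale (SE 0.07, edgeR adjusted p = 0.012), and the groups did not overlap. After siRNA the levels were 115 and 125 CPM in the control and 122 and 123 CPM in the knockdown, which lay inside the control range (log2 fold change 0.04, SE 0.13). The fall of IMMT was thus seen in the stable lines, and whether the experiments differ in it was not tested. IMMT shares 135 exon bases with a long noncoding RNA on the opposite strand.

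CHCHD3 (chr7:132469631-132766850, minus strand, 8 exons) encodes MIC19, a peripheral subunit that links mitofilin to SAM. Its knockdown libraries lay below the controls in both experiments. In siRNA control it stood at 73.7 and 72.6 CPM and in ETS1 siRNA at 33.2 CPM in both libraries, which is 45.3% of the control mean and −1.14 on the log2 scale (SE 0.11). In shCON it stood at 88.3 and 87.9 CPM and in shETS1 at 59.8 and 55.7 CPM. The replicates lay close together and the groups far apart, with a fold change of −0.61 on the log2 scale (SE 0.08, edgeR adjusted p = 2.6e-06). CHCHD3 shares 172 exon bases with a processed pseudogene on the same strand, and its annotated pseudogene copies CHCHD3P1, CHCHD3P2 and CHCHD3P3 were listed at 0 in all libraries.

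CHCHD6 (chr3:126423083-126679263, plus strand, 8 exons) encodes MIC25, a paralogue of MIC19, at a much lower level. It stood at 7.84 and 8.36 CPM in shCON and at 6.75 and 5.23 CPM in shETS1, from 132 to 217 reads per library. The fold change was −0.44 on the log2 scale (SE 0.15, edgeR adjusted p = 0.021), and it lost its call with DESeq2 (DESeq2 adjusted p = 0.15) and without the second shETS1 library (−0.26, edgeR adjusted p = 0.19). After siRNA the direction was the opposite, with 7.76 and 7.48 CPM in the control and 7.91 and 10.0 CPM in the knockdown (log2 fold change 0.24, SE 0.19). That difference rested on the second ETS1 siRNA library, without which the log2 fold change was 0.05.

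APOO and APOOL encode MIC26 and MIC27, paired MICOS subunits of the apolipoprotein O family that bind or influence the lipid cardiolipin. APOO (chrX:23851470-23926055, minus strand, 9 exons) stood at 19.5 and 20 CPM in shCON and at 15.3 and 16.1 CPM in shETS1, a log2 fold change of −0.33 (SE 0.10, edgeR adjusted p = 0.011). In the siRNA experiment the knockdown libraries lay above the controls, at 11.2 and 13.9 CPM in the control and at 15.9 and 16.3 CPM in ETS1 siRNA (log2 fold change 0.36, SE 0.17). APOOL (chrX:84258883-84348321, plus strand, 9 exons) stood at 12.2 and 11.3 CPM in shCON and at 13.2 and 13.9 CPM in shETS1. Its groups did not overlap, but the fold change of 0.21 on the log2 scale (SE 0.11, edgeR adjusted p = 0.13) did not pass the test, and the interval of 2 SE to either side ran from −0.02 to 0.44. After siRNA, APOOL stood at 8.77 and 8.42 CPM in the control and at 8.26 and 5.81 CPM in the knockdown (log2 fold change −0.29, SE 0.21). APOO and APOOL thus lay on opposite sides of their controls in each experiment, and each lay on opposite sides in the 2 experiments, a difference that was not tested. For APOOL after siRNA, the first knockdown library, at 8.26 CPM, lay close to the controls. Most of the distance came from the second, at 5.81 CPM. APOOL shares 319 exon bases with SATL1 on the opposite strand.

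CCDC58 (chr3:122078438-122102078, minus strand, 5 exons), now named MIX23, encodes a small intermembrane space protein with paired cysteine motifs that is known for a role in protein import. After siRNA it had the lowest share of its control level among the 10 genes, 34.6%, with 44 and 41.7 CPM in the control and 15 and 14.7 CPM in ETS1 siRNA (log2 fold change −1.53, SE 0.13). After shRNA the libraries of both groups overlapped, at 45.8 and 50.6 CPM in shCON and 49.9 and 47.2 CPM in shETS1. The fold change was 0.01 on the log2 scale (SE 0.08, edgeR adjusted p = 0.93), and 2 SE to either side ran from −0.16 to 0.17. No annotated gene shares exon bases with CCDC58.

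**Figure D2:**
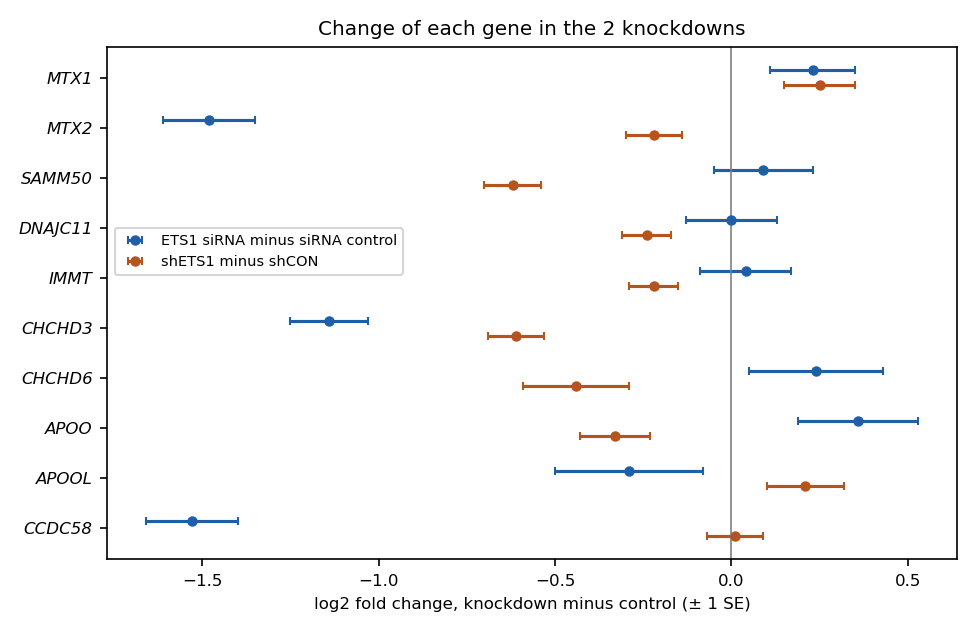
Log2 fold change of each gene (horizontal axis, knockdown minus control) with error bars of 1 SE, for ETS1 siRNA against siRNA control and shETS1 against shCON. The siRNA points of MTX2 (−1.48), CHCHD3 (−1.14) and CCDC58 (−1.53) stand far left of the other 7, whereas the shRNA points lie between −0.62 and 0.25.

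The values of both experiments are set side by side without a test. MTX2 and CCDC58 had fold changes of −1.48 and −1.53 after siRNA against −0.22 and 0.01 after shRNA, SAMM50 had 0.09 against −0.62, and CHCHD3 was lower in both. Each experiment had its own controls, ETS1 had a log2 fold change of −4.13 after siRNA and −2.89 after shRNA, and the spread between replicates was wider in the siRNA experiment, with a biological coefficient of variation of 13.8% beside 6.34%.

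Levels per kilobase of the canonical transcript allowed the genes to be ordered within an experiment. In shCON the order from the top was CCDC58 at 67.0 ± 4.70 CPM per kilobase (SD, n = 2), IMMT at 60.4 ± 0.241, CHCHD3 at 54.9 ± 0.170, MTX2 at 40.5 ± 2.05, SAMM50 at 34.7 ± 2.04 and DNAJC11 at 23.3 ± 0.260. The lower end of that order was APOO at 17.6 ± 0.299, MTX1 at 12.6 ± 0.565, CHCHD6 at 8.10 ± 0.373 and APOOL at 1.81 ± 0.0916. No neighbours in this order overlapped between their libraries. In siRNA control CHCHD3 at 45.6 ± 0.489 and IMMT at 44.5 ± 2.63 did not differ beyond their spread, and MTX1 at 24.9 ± 0.897 stood above DNAJC11 at 20.8 ± 0.702. APOOL has a canonical transcript of 6480 bases, of which 5637 are 3′ untranslated, and which of its transcripts the cells used was not measured.

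Ratios of paralogues taken within each library do not depend on library scaling. MTX2 over MTX1, both per kilobase, was 1.70 and 1.49 in siRNA control and 0.479 and 0.497 in ETS1 siRNA, so that on this scale MTX2 stood above MTX1 in the control and below it in the knockdown. In the stable lines the same ratio was 3.2 and 3.22 in shCON and 2.27 and 2.38 in shETS1, lower in both knockdown libraries with MTX2 still in excess. CHCHD3 over CHCHD6 was 5.92 and 6.05 in siRNA control and 2.61 and 2.07 in ETS1 siRNA. The shRNA libraries of that pair overlapped, at 7.03 and 6.55 in shCON and 5.52 and 6.63 in shETS1, since both genes were lower there. APOO over APOOL stood at 7.37 and 9.54 in siRNA control, at 11.1 and 16.2 in ETS1 siRNA, at 9.27 and 10.2 in shCON and at 6.69 and 6.68 in shETS1. The siRNA ratios rest on the values that chose the genes, and none of the ratios was tested.

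**Figure D3:**
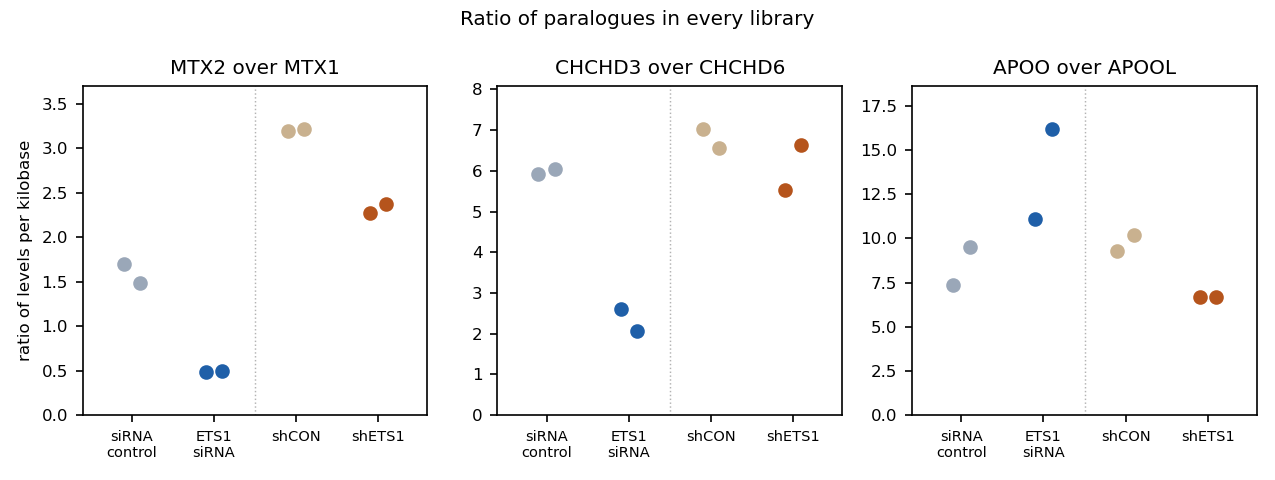
Ratio of the levels per kilobase of 3 pairs of paralogues (vertical axes, starting at 0) in each of the 8 libraries, with the siRNA experiment left of the dotted line. MTX2 over MTX1 lies between 0.479 and 0.497 in ETS1 siRNA and between 1.49 and 1.70 in its control, and the groups of CHCHD3 over CHCHD6 overlap in the shRNA experiment.

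The other genes of mitochondrial membrane organization and import were taken from 9 lists by function, with 112 of 113 genes tested after shRNA and 111 after siRNA. After shRNA, 47 were called lower and 27 higher with a median log2 fold change of −0.10, and after siRNA 3 were called lower and 0 higher with a median of 0.06. At an unadjusted p under 0.05 in edgeR, 10 of them were lower and 7 higher after siRNA, and DESeq2 called 7. That is 15.3% of the 111 genes, beside 18.5% of all genes tested after siRNA. The lists were drawn up with earlier results of these data known, and their counts are a description beside the shares of all genes given above. Of the genes named from them, GRPEL2, ROMO1, CMC2, CHCHD10, OPA1, MIEF1, CRLS1, PRELID1, CS, HSPD1 and MYC share 28 to 3298 exon bases with another annotated gene, so that their counts may hold reads of both.

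Of the 4 remaining MICOS and SAM genes, MINOS1 (MIC10), which shapes the crista neck together with mitofilin, was lower after shRNA, with 29.7 and 27.4 CPM in shCON and 18.2 and 20.1 CPM in shETS1 (log2 fold change −0.58, SE 0.10, edgeR adjusted p = 8.1e-05). Its exons overlap MICOS10-NBL1, a read-through gene, by 555 bases on the same strand. After siRNA, MINOS1 gave a log2 fold change of 0.04 (SE 0.17, edgeR adjusted p = 0.92), with a sign that turned when either the second control or the second knockdown library was left out. C19orf70 (MIC13), the bridge between the MICOS subcomplexes, did not pass the test after shRNA (log2 fold change 0.16, edgeR adjusted p = 0.2) or after siRNA (0.33, edgeR adjusted p = 0.34). ARMC1, found with DNAJC11 in the intermembrane bridge, was called higher after shRNA by 0.15 on the log2 scale (SE 0.07, edgeR adjusted p = 0.094), a call lost with DESeq2 (DESeq2 adjusted p = 0.19), under size-only scaling (0.02) and when any of 3 of the 4 libraries was left out.

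MTX3, the third metaxin, stood at 18.8 and 14.3 CPM in siRNA control and 11.5 and 7.19 CPM in ETS1 siRNA. The groups did not overlap, but the fold change of −0.84 on the log2 scale (SE 0.24, edgeR adjusted p = 0.14) did not pass the test. It passed with DESeq2 (DESeq2 adjusted p = 0.067) and without the first ETS1 siRNA library (−1.20, edgeR adjusted p = 0.012). MTX3 carries ACCTCAA and AGCCTTA once each in a 3′ untranslated region of 6968 bases. After shRNA its libraries overlapped (log2 fold change −0.09, SE 0.09, edgeR adjusted p = 0.42).

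In the outer membrane translocase, the entry gate for proteins made in the cytosol, 3 of 7 genes tested were lower and 1 higher after shRNA. TOMM20, a receptor for presequences, stood at 400 and 420 CPM in shCON and 248 and 266 CPM in shETS1 (log2 fold change −0.67, SE 0.08, edgeR adjusted p = 9.8e-07). It was the gene of this list called lower after siRNA too, with 257 and 218 CPM in the control and 147 and 169 CPM in ETS1 siRNA (−0.59, SE 0.14, edgeR adjusted p = 0.097). That second call was lost without either control library (−0.47 without the first, edgeR adjusted p = 0.71) and with the replicate block (edgeR adjusted p = 0.27). TOMM22 and TOMM40, the central receptor and the channel, were lower after shRNA by log2 fold changes of −0.45 and −0.44 (edgeR adjusted p = 6.1e-05 and 4.8e-05).

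In the inner membrane translocases, 4 of 16 genes were lower and 2 higher after shRNA. TIMM23, the presequence channel, had a fold change of −0.38 on the log2 scale (SE 0.08, edgeR adjusted p = 0.00059), and its near-identical copy TIMM23B could share its reads. GRPEL2, a nucleotide exchange factor of the import motor, had −0.77 (edgeR adjusted p = 5.8e-07), and ROMO1, a small inner membrane subunit, was higher by 0.47 (edgeR adjusted p = 0.00047). GRPEL1, the paralogue of GRPEL2, was the gene of this list called after siRNA, from 56.2 and 46.3 CPM to 31.8 and 34.3 CPM (log2 fold change −0.63, SE 0.14, edgeR adjusted p = 0.079). It holds 1 copy of ACCTCAA in its 3′ untranslated region, and its call was lost without the first siRNA control library (−0.48, edgeR adjusted p = 0.64) and with the replicate block (edgeR adjusted p = 0.22).

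The import relay of the intermembrane space and the small TIM chaperones had 6 of 9 genes lower and 2 higher after shRNA, with a median log2 fold change of −0.23. CHCHD4, the oxidoreductase that folds CHCHD3, CHCHD6 and other twin-cysteine proteins, stood at 18.3 and 19.7 CPM in shCON and at 13.2 and 14.1 CPM in shETS1 (log2 fold change −0.48, SE 0.11, edgeR adjusted p = 0.0011). After siRNA it stood at 15.4 and 15.1 CPM in the control and at 9.95 and 12.6 CPM in the knockdown, without overlap, and did not pass the test (log2 fold change −0.44, SE 0.17, edgeR adjusted p = 0.23). TIMM10, a chaperone subunit, was lower after shRNA (−0.60, edgeR adjusted p = 3.8e-05), whereas TIMM10B was higher by 1.00 (edgeR adjusted p = 1.6e-07) and TIMM8B by 0.50 (edgeR adjusted p = 6.4e-05). TIMM10B shares 396 exon bases with another gene model on its strand, and TIMM8B 351 with NKAPD1 on the opposite strand.

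Among 15 other proteins with twin CX9C motifs, the fold class of CHCHD3 and CHCHD6, 6 were lower and 5 higher after shRNA. CHCHD10 and CMC2 had log2 fold changes of −0.78 and −0.56 (edgeR adjusted p = 2.1e-06 and 3.5e-05), and CHCHD7 was higher by 0.80 (edgeR adjusted p = 5.3e-07). After siRNA 0 of the 15 were called in edgeR, with 0 lower and 3 higher at an unadjusted p under 0.05 (20%, near the 18.5% of all genes) and 1 called by DESeq2, and their median log2 fold change was 0.21.

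Genes of crista shape, fusion and fission gave 8 lower and 4 higher of 18 after shRNA. After siRNA edgeR called 0, with 1 lower and 1 higher at an unadjusted p under 0.05, and DESeq2 called 1. OPA1, the inner membrane fusion GTPase that acts with MICOS at the crista neck, did not pass the test in either experiment, with log2 fold changes of 0.08 (SE 0.07, edgeR adjusted p = 0.36) after shRNA and 0.07 (SE 0.13, edgeR adjusted p = 0.82) after siRNA. OMA1, a protease that cleaves OPA1, stood at 15.1 and 16.9 CPM in shCON and at 32.1 and 28.6 CPM in shETS1 (log2 fold change 0.92, SE 0.10, edgeR adjusted p = 7.2e-07). ATAD3A, an inner membrane ATPase, and MIEF1, a receptor of the fission machinery, were lower by log2 fold changes of −0.59 and −0.58 (edgeR adjusted p = 5.2e-06 and 1.1e-05). OMA1 shares 257 exon bases with DAB1 on the same strand.

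Of 9 genes of cardiolipin synthesis and remodelling, 2 were lower and 4 higher after shRNA, and 0 were called after siRNA by edgeR or DESeq2, with 0 at an unadjusted p under 0.05. HADHA, which also serves fatty acid oxidation, was higher by 0.41 on the log2 scale (edgeR adjusted p = 0.00018) and PRELID1, which carries the precursor lipid between the membranes, was lower (−0.39, edgeR adjusted p = 0.001). CRLS1, cardiolipin synthase, was called higher by 0.29 (edgeR adjusted p = 0.0073), a call lost under size-only scaling (0.16, edgeR adjusted p = 0.11) and without the first shCON library (0.20, edgeR adjusted p = 0.17).

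Of the markers of the matrix and of mitochondrial mass, 12 of 18 were lower and 2 higher after shRNA, with a median log2 fold change of −0.26. CS, the citrate synthase often used to gauge mitochondrial mass, stood at 144 and 142 CPM in shCON and at 73.9 and 83.5 CPM in shETS1 (log2 fold change −0.86, SE 0.08, edgeR adjusted p = 5.6e-08). HSPD1, the matrix chaperonin, and MDH2, malate dehydrogenase, had log2 fold changes of −0.68 and −0.60 (edgeR adjusted p = 1.7e-06 and 1.4e-06). CHCHD3 and SAMM50, at −0.61 and −0.62, lay inside the range of these matrix genes, and IMMT at −0.22 lay near the median of the list. After siRNA edgeR called 0 of the 18, with 1 lower and 1 higher at an unadjusted p under 0.05, and DESeq2 called 1, and CS had a log2 fold change of −0.02 (SE 0.12, edgeR adjusted p = 0.95). Whether the 10 genes differ from the matrix markers was not tested.

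Regulators of mitochondrial biogenesis went both ways after shRNA, with 5 of 16 lower and 6 higher. PPARGC1A, a coactivator that drives mitochondrial gene programmes, stood at 1.83 and 1.5 CPM in shCON and at 12.8 and 13.4 CPM in shETS1 (log2 fold change 2.97, SE 0.16, edgeR adjusted p = 1.2e-10), and its siRNA libraries held 3 to 7 reads each and were not tested. PPRC1, a related coactivator, and MYC were lower by log2 fold changes of −1.06 and −0.75 (edgeR adjusted p = 3.7e-07 and 1.8e-07). GABPA, an ETS family factor that binds the same GGAA core and is known to act on nuclear genes of mitochondria, was the gene of this list called after siRNA. It stood at 46.9 and 37.4 CPM in siRNA control and at 24.0 and 27.1 CPM in ETS1 siRNA (log2 fold change −0.72, SE 0.15, edgeR adjusted p = 0.07), a call lost without the first control library (−0.55, edgeR adjusted p = 0.53) and with the replicate block (edgeR adjusted p = 0.21). After shRNA, GABPA was called higher by 0.17 (edgeR adjusted p = 0.065), and that call was lost with DESeq2 (DESeq2 adjusted p = 0.18), under size-only scaling (0.04) and in 3 of the 4 fits that left out a library. GABPA holds 1 copy of ACCTCAA in its 3′ untranslated region and shares 692 exon bases with ATP5PF on the opposite strand.

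**Figure D4:**
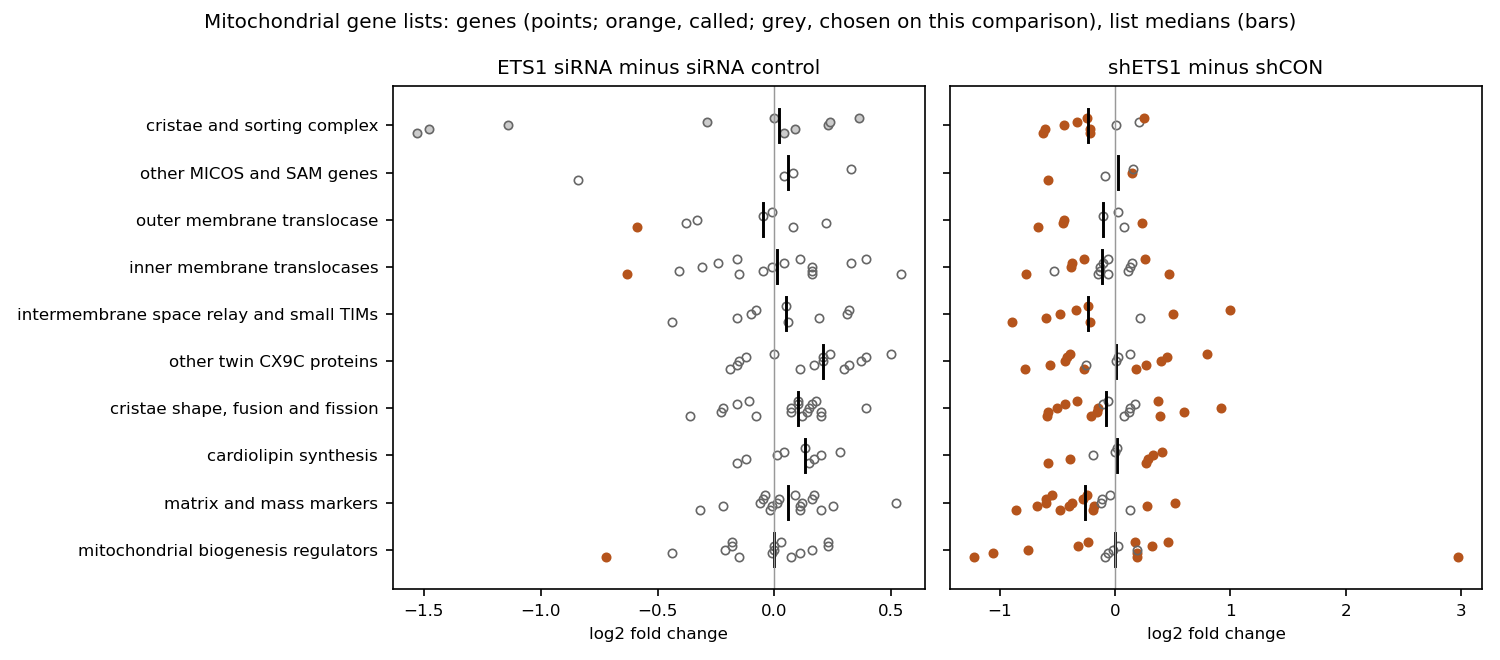
Log2 fold change (horizontal axis, different ranges in the 2 panels) of every tested gene of the 10 genes and of the 9 other mitochondrial lists, with orange points for genes called at an adjusted p under 0.1, grey points for the genes chosen on the siRNA comparison and bars for list medians. In the shRNA panel 7 of the 10 genes are called lower, as are 12 of 18 matrix and mass markers, and the median of the matrix list lies at −0.26.

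The motifs were also set beside the calls of all genes. Of genes tested after siRNA with ACCTCAA in the 3′ untranslated region, 9.15% were called lower, with a median log2 fold change of −0.15 over 1573 genes, beside 1.61% and 0.02 over the 11273 without it. After shRNA the shares were 35.9% and 34.7%. For AGCCTTA, which APOO holds, 3.07% of genes with it and 1.07% of those without were called higher after siRNA and 3% and 2.48% lower, and after shRNA 39.3% and 34.3% were called lower and 29.4% and 31.8% higher. The heptamers came from these siRNA libraries, so the siRNA shares restate how they were found, and their part in the values of MTX2, CCDC58 and APOO was not tested. Of the genes named from the other lists, ARMC1, CMC2 and MIEF1 also hold 1 copy of ACCTCAA, as do GRPEL1, GABPA and MTX3. After siRNA, ARMC1, CMC2 and MIEF1 had log2 fold changes of 0.08, 0.00 and −0.36, none of them called in the main fit. TOMM20, called lower after siRNA, holds neither heptamer. For the ETS core, 31.3% of genes that held it in the promoter and 34.6% of those that did not were called lower after shRNA and 33.6% and 31.0% higher. After siRNA 1.83% and 2.66% were called lower and 0.851% and 1.20% higher. The genes with the core among the 10, MTX2, IMMT and APOO, had shRNA fold changes of −0.22, −0.22 and −0.33 on the log2 scale. Of the genes without it, the 4 lower ones had −0.24 to −0.62, and CCDC58, APOOL and MTX1 had 0.01, 0.21 and 0.25. Whether genes with and without the core differ was not tested.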

How the data were processed

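The 2 tables deposited by the authors hold raw counts of reads per gene symbol for 4 libraries each, 1 table per knockdown. Per the submitters' processing notes, reads were aligned to GRCh37 with TopHat2 2.1.1 and Bowtie2 2.2.6 and counted with featureCounts 1.5.0. The use of strand and of reads with several matches is not given in the sources used here. Libraries were grouped by their labels, and the labels of the shETS1 libraries name the hairpin, which their column names leave out.

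Each knockdown was fitted on its own with edgeR 4.0.16 in R 4.3.3 (limma 3.58.1), by quasi-likelihood, with TMM scaling, filterByExpr, group as the only term and two-sided tests. A gene was called where its p, adjusted by Benjamini-Hochberg over all genes tested, was under 0.1, the threshold of the study's own analysis. CPM are counts divided by the TMM-scaled sum of the genes kept. DESeq2 1.42.0, other scalings, filters and thresholds, a replicate block, a fit of all 8 libraries and leaving out each library were tried as alternatives.

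The members and lists were chosen with earlier results of these data known. The rule for named genes took all 10 members, ETS1, GABPA, OPA1, CHCHD4, MINOS1, C19orf70, MTX3 and ARMC1, and from each other mitochondrial list up to 3 genes called in each experiment by smallest adjusted p. On simulated counts in which 200 genes were given a log2 change of 1, 84.5% of those tested were recovered in the shRNA design and 69.9% in the siRNA design, with 10.9% and 16.0% of calls false. The shRNA data differ from that setting, with 9988 genes called and changes of the 10 genes from −0.62 to 0.25. The simulated shares therefore cannot be carried over to those calls. Of 56638 symbols, 35414 matched a single gene of GENCODE lifted to GRCh37. Replicates of a group differed by more than counting noise (chi-square per degree of freedom from 7.0 to 25.7), so none looked like a single library sequenced again. Whether they came from separate cultures cannot be told from this value. Protein sequences and the study's other assays were not used here.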

Additional observations from a re-analysis of the deposited data

Results flagged for a closer look

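In 3 of the 10 genes every library of 1 knockdown lay on one side of its controls and every library of the other knockdown on the opposite side. The share of all genes that did so was not counted, so nothing is read from that number. Of all genes tested after shRNA, 30.9% were called lower and 29.7% higher. CHCHD6 had a log2 fold change of −0.44 after shRNA and 0.24 after siRNA, which became −0.26 (no longer called) without the second shETS1 library and 0.05 without the second ETS1 siRNA library. APOO had −0.33 after shRNA and 0.36 after siRNA, and APOOL had 0.21 after shRNA and −0.29 after siRNA. The siRNA value of APOOL came mostly from the second ETS1 siRNA library, at 5.81 CPM. The first, at 8.26 CPM, lay close to the controls at 8.77 and 8.42 CPM. These differences between the experiments were not tested, the experiments differ in the way ETS1 was lowered, in duration and in their libraries, and the siRNA values were known when the genes were chosen. CHCHD6 and APOOL are the genes with the fewest reads of the 10, from 118 to 351 per library, and APOO had 222 to 519.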

How the results depend on the processing

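The count of 7 genes lower after shRNA became 6 with DESeq2 and 6 to 7 with a library left out and held under the other alternatives tried. The count of 1 gene higher after shRNA became 0 with size-only scaling, 0 with DESeq2, 2 under the study's filter, and 0 to 1 with a library left out. After siRNA the 3 genes called lower were chosen for falling there, so no stability is read from their count.

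Calls over all genes after siRNA numbered 502. They became 1466 with no low count filter, 794 under the study's filter, 766 with DESeq2, 2166 with all 8 libraries in one fit and 190 at an adjusted p under 0.05. Leaving out a library gave 72 (without the first siRNA control library) to 1478 (without the first ETS1 siRNA library). For the 9 lists the 3 calls after siRNA became 7, 6, 7, 15 and 0 under the same 5 alternatives and 0 to 7 with a library left out. After shRNA the 9988 calls over all genes became 8282 to 9675 and the 74 calls in the lists 53 to 72 with a library left out.

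Deviations of same-numbered replicates correlated at −0.244 in the shRNA and −0.538 in the siRNA experiment, so the numbers were not taken to pair the libraries. The replicate block gave 97 calls over all genes and 0 in the lists after siRNA, and 7 lower and 1 higher of the 10 genes after shRNA. The crossed pairing, a replicate block added after seeing the data, gave 3238 calls over all genes, 20 in the lists and 1 of the 10 genes higher after siRNA, and 2 of the 10 higher after shRNA.

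Signs turned for CCDC58 after shRNA (−0.12 with size-only scaling, −0.01 with all 8 libraries, −0.04 without the first shETS1 library, and −0.07 to 0.08 with a library left out), OPA1 after shRNA (−0.04 with size-only scaling), MTX3 after shRNA (−0.21 to 0.01 with a library left out, positive without the first shETS1 library), MINOS1 after siRNA (−0.13 to 0.19 with a library left out, negative without the second control or the second knockdown library) and ARMC1 after siRNA (−0.09 to 0.23 with a library left out, negative without the second ETS1 siRNA library). SAMM50 after siRNA, described without a test, also turned, to −0.09 without that library. None of the others passed the test in the main fit or in those alternatives, and the cause was not tested. DNAJC11 and IMMT, at 0.00 and 0.04 after siRNA and described without a test, had overlapping libraries there, so no sign is read from them. Size-only scaling moved the median log2 fold change of all genes after shRNA to −0.12 and that of the 10 genes to −0.36. CHCHD6 and APOOL rest on the fewest reads, 118 to 351 per library.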
